A study of Mus musculus with 11 samples.

Results

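Non-classical monocytes are the blood monocytes that crawl along the inner wall of capillaries, and in dissociated mouse lung they formed a class of 2936 cells among 69267 that passed the limits on depth and mitochondrial RNA, or 4.24%. A cell was counted as a member when its transcripts of Treml4, Cd300e and Adgre4, 3 surface receptors of this cell, summed to 2 or more unique molecular identifiers (UMIs, 1 per captured transcript). It also had to hold at most 2 UMIs of the classical monocyte genes F13a1 and Vcan, fewer than 10 of the complement genes C1qa, C1qb and C1qc, and none of Cd3e (T cells) or Cd79a (B cells). These 10 genes chose the members, so their levels are given below as a description only. Of 4016 cells positive for the receptors, 677 had too many F13a1 or Vcan UMIs, 179 too many C1q UMIs and 314 a Cd3e or Cd79a UMI. Each of the 11 libraries gave between 192 and 532 members.

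The study made droplet-based single-cell RNA libraries of total lung cells from aged mice, to ask what follows when telomerase (mTert) is induced in cells that express p21. Lungs were digested with dispase and collagenase, and the red cells were lysed. WT (wild type, +/+) was 1 library from an animal of 18 months. The p21Het group (p21 heterozygotes, +/-) had 3 libraries, replicate 1 at 19 months and the others at 18. The p21mTert group (+/mTert) had 5 libraries, replicate 1 at 20 months and the others at 18, and the p21mTertCD group (+/mTertCD) had 2 libraries at 18 months. The sample titles give 18 months for all 11. The 3 mutant groups therefore share 1 altered p21 (Cdkn1a) allele beside 1 normal one as the labels write them, p21Het is the control without mTert, and the labels do not spell out CD. WT and the first p21Het and p21mTert libraries belong to a first deposit and the other 8 to a later one, and the series text states that samples were sequenced at different times. The labels do not state that each library came from a separate mouse, so the p-values below measure the spread between libraries, which may be technical. Libraries held 42038434 to 85988955 UMIs in all and 1636736 to 4306959 UMIs in members, whose median depth was 5944.5 to 10699.5 UMIs per cell. Over the 55 pairs of libraries, 4 to 20 passing barcodes and at most 1 member barcode were shared.

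Non-classical monocytes arise from Ly6C-high classical monocytes, need the nuclear receptor Nr4a1 and C/EBPβ to mature, and are held on the endothelium by the integrin LFA-1 (Itgal with Itgb2) and the chemokine receptor Cx3cr1. They are known for clearing debris from the vessel wall and for carrying the Fc receptor Fcgr4. Classical monocytes, by contrast, leave the marrow and enter inflamed tissue through Ccr2.

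By genes that had no part in the choice, the label held for most members. Fcgr4 had a UMI in 83.0% of members (median depth 7786.5 UMIs), in 24.8% of the 1494 classical monocytes (12326 UMIs) and in 1.53% of 14399 T cells (3 or more UMIs of T cell genes), which should lack it (6256 UMIs). With each cell thinned to 1000 UMIs, those shares were 39.5%, 3.88% and 0.201%. Ace, the angiotensin-converting enzyme, was found in 81.7%, 11.5% and 2.75% of the same classes. The receptors themselves, which the rule fixes, were found in 87.2% (Treml4), 86.6% (Adgre4) and 67.7% (Cd300e) of members, and 1653 members (56.3%) had all 3. The edge of the class was softer. The 385 members with exactly 2 receptor UMIs had Fcgr4 in 49.4% and Ace in 36.6% of cells, against 39.3% and 18.0% in 1541 cells that met the other limits with 1 receptor UMI. At the other limit, the 81 members with 2 F13a1 or Vcan UMIs had Fcgr4 in 59.3% and Ace in 75.3% of cells, and the 62 cells with 3 such UMIs had them in 50.0% and 75.8%. Those 81 members also held the classical genes Ccr2 in 88.9% and Ly6c2 in 61.7% of cells, against 24.8% and 11.3% of all members.

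Part of the class carried transcripts of other cells. Of the 2936 members, 714 (24.3%, and 15.2% to 36.3% by library) held 3 or more UMIs of a marker set of another lineage. Neutrophil markers were the most frequent, in 346 members (11.8%, from 2.26% to 21.4% by library), followed by alveolar macrophage markers in 166 (5.65%), dendritic cell markers in 117 (3.99%), endothelial markers in 99 (3.37%) and epithelial markers in 55 (1.87%). The label did not hold for the members with dendritic cell markers, of which 16.2% had Fcgr4 and 22.2% had Ace, and was mixed for those with alveolar macrophage markers, of which 77.7% had Fcgr4 and 44.6% had Ace. Those 2 groups of cells were deep, with medians of 16304 and 20732.5 UMIs, and had a median of 2 receptor UMIs. The 2222 members (75.7%) with no such marker set, called the core below, were chosen after these values were seen. A doublet score marked 262 members, and it was not used to choose the core. Fcgr4 was in 88.1% and Ace in 88.5% of core members.

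**Figure D1:**
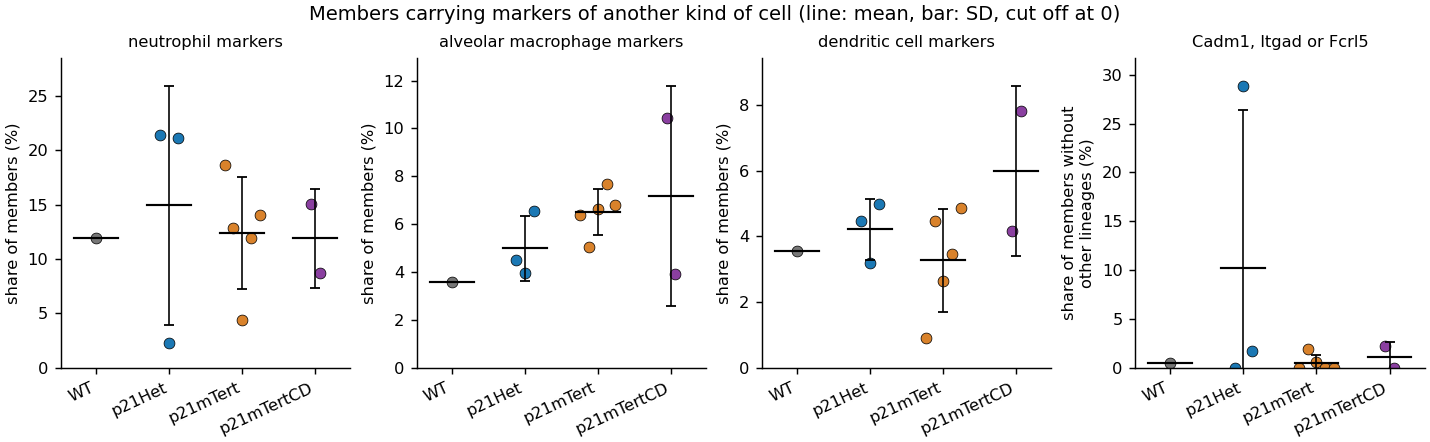
The first 3 panels show the percent of members with 3 or more UMIs of neutrophil, alveolar macrophage or dendritic cell markers (y axes). The last panel shows the percent of core members with 2 or more UMIs of Cadm1, Itgad and Fcrl5 (y axis). There is 1 point per library by genotype group (x axis), with the group mean as a line and the SD as a bar. The library shares run from 2.26% to 21.4% for neutrophil markers, and p21Het replicate 2 lies at 28.8% in the last panel.

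1 library stood apart. In p21Het replicate 2, 130 of 451 core members (28.8%) held 2 or more UMIs of Cadm1, Itgad and Fcrl5, and the other 10 libraries had 0 to 5 such cells each. Over all members of that library, in the core or not, 101 held both Itgad, an integrin α chain, and Cadm1, an adhesion molecule. Of the 130 core cells, 2 were marked as doublets, and their median depth was 5742 UMIs. Their levels are given in CPM, the UMIs of a gene scaled to a total of 1000000, beside those of the other core members of the same library, without a test because the cells were picked by their values. Fcgr4 was at 2630 against 711 CPM. Of the receptors that chose the members, Cd300e was at 747 against 287 CPM, Adgre4 at 670 against 518 CPM and Treml4 at 240 against 359 CPM, so they did not all lie on one side, and Cx3cr1 was at 348 against 414 CPM. Ace was at 31.4 against 609 CPM, the egress receptor S1pr5 at 3.76 against 127 CPM, the scavenger receptor Cd36 at 27.6 against 474 CPM and Plac8 at 134 against 1918 CPM. The invariant chain Cd74 was at 250 against 2948 CPM and H2-Eb1 of MHC class II at 43.9 against 642 CPM. Higher in these cells were the cyclin Ccnd2 (1556 against 133 CPM), the B cell and myeloid receptor Cd72 (428 against 11.6 CPM) and Cdkn2a, the locus of p16 and p19ARF (146 against 0.830 CPM, or 116 against 2 UMIs). The proliferation gene Mki67 was at 37.6 against 1.66 CPM, with a UMI in 4.62% of these cells against 1.25% of the others. Cdkn1a, which encodes p21, was at 65.2 against 116 CPM. Counts of genes, shares and the calls against p21Het are therefore also given without that library.

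Against classical monocytes of the same libraries, members were higher in Ace, Fcgr4, Itgal, Cd36 and Bcl2, among others, and lower in Ccr2 and Fn1. Classical monocytes were 1494 cells, 32 to 295 per library, with 3 or more F13a1 or Vcan UMIs, at least 1 Ly6c2 UMI and fewer than 2 receptor UMIs. Of 7611 genes at 10 CPM or more in either class, 265 (3.48%) were at least 2-fold higher in members in all 11 libraries and 82 (1.08%) at least 2-fold lower, with a median log2 ratio of 0.15. These are descriptions, since the classes were cut from the same counts, and every ratio is on the log2(CPM + 1) scale as a median over 11 libraries. Among the highest, Ace had a median of 632 CPM in members and 17 CPM in classical monocytes (log2 ratio 4.65), and Fcgr4 420 against 26.5 CPM (4.24). Ear2, an eosinophil-type ribonuclease, reached 4.94, the muscle enolase Eno3 6.04 and the transporter Slc12a2 5.74. Ear2 ranged from 3.31 to 5.62 over the libraries, so no library lacked the difference. 2 of the 15 highest genes, Atp6v0d2 (5.09) and Plet1 (4.78), are alveolar macrophage markers, and their ratios were -0.51 and 0.20 in the core. Every ratio of the core is against the same 1494 classical monocytes, from which cells with other lineages' markers were not left out. Only 1 side of these ratios was thus cleaned, which can lower them for genes of other lineages.

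Among the genes that hold and move a patrolling cell, some were higher and some lower than in classical monocytes. Of 21 adhesion and migration genes, 6 were at least 2-fold higher and 2 lower in every library, beside 3.48% and 1.08% of all genes, with a median ratio of 0.64 (0.15 over all genes). Itgal, the α chain of LFA-1, had a ratio of 2.55 and its partner Itgb2 1.17, and Itgax, an integrin α chain shared with dendritic cells, 4.88. Spn, the sialophorin CD43 used to sort these cells, was at 3.11, and S1pr5, the sphingosine phosphate receptor that lets them leave the marrow, at 4.54. Cx3cr1 was higher in 11 of 11 libraries but by less, with 441 against 244 CPM and a ratio of 0.82. Ccr2, at -3.31, was among those lower.

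The lipid handling list had a median ratio of 2.35 over 18 genes in all members, with 8 at least 2-fold higher and 1 lower in every library, beside 3.48% and 1.08% of all genes. In the core, set against the same classical monocytes, the median was 0.82, with 5 higher and 1 lower, beside 2.94% and 1.62% of all genes. Alveolar macrophage markers, whose cells also handle lipid, had a median of 4.62 over 7 genes in all members and -0.05 in the core. Fabp4, a fatty acid carrier of endothelium and macrophages, was at 278 against 2.94 CPM (6.76), Cd36 at 430 against 14.6 CPM (4.94) and Pparg, the lipid-sensing nuclear receptor, at 4.26, and in the core these 3 ratios were 6.80, 5.01 and 4.37. Lpl, the lipoprotein lipase, was at 2.43 in all members but -1.21 in the core, and the cholesterol exporter Abcg1 at 2.68 and 1.58. Of 14 genes of growth factor receptors and survival, 3 were at least 2-fold higher in every library and 0 lower, beside 3.48% and 1.08% of all genes. They were Bcl2a1b (5.03), Bcl2a1d (4.04), whose sequences are near-identical so that reads could be split between them, and Bcl2 (3.42). The growth factor receptor Csf1r was higher in all 11 libraries by a ratio of 0.75. The checkpoint ligand Cd274 (PD-L1) was at 88.2 against 2.32 CPM (4.92).

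Of 20 transcription factors and other regulators, 3 were at least 2-fold higher in every library and 0 lower, beside 3.48% and 1.08% of all genes, with a median ratio of 0.10 (0.15 over all genes). Tcf7l2, the Wnt effector, was at 4.28, Hes1, the Notch target, at 3.14 and Pou2f2 at 2.08. Nr4a1 was abundant in both classes, at medians of 1691 and 949 CPM (ratio 0.80), and Cebpb was higher in members in 4 of 11 libraries (-0.04). Cdkn1a, the p21 gene, was at 219 CPM in members and 264 CPM in classical monocytes, lower in members in all 11 libraries (-0.32). On the low side, Ly6c2 was at 48.6 against 982 CPM (-4.24), a difference that the choice of classical monocytes by a Ly6c2 UMI sets in part. Also lower were Fn1 (fibronectin, -4.22) and Ccl2, the ligand of Ccr2 (-3.96). The interferon response list and the PYHIN family of DNA sensors had medians of -1.30 over 15 genes and -1.93 over 10 genes. Of these, 2 of 15 and 5 of 10 were at least 2-fold lower in every library, beside 1.08% of all genes, and 2 and 3 in the core, beside 1.62%.

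**Figure D2:**
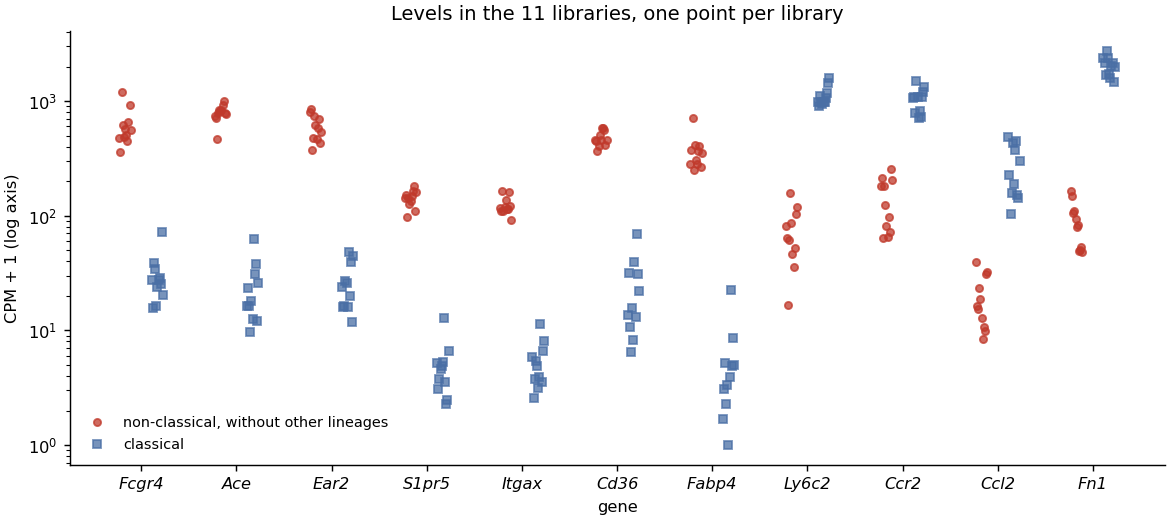
CPM + 1 on a log axis for 11 genes (x axis), 1 point per library for core members (circles) and classical monocytes (squares). Ace, Fcgr4, Ear2, S1pr5, Itgax, Cd36 and Fabp4 lie higher in the members, and Ly6c2, Ccr2, Ccl2 and Fn1 lower, in each of the 11 libraries. Classical monocytes were chosen to hold a Ly6c2 UMI, and cells with other lineages' markers were not left out of them.

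No difference in the abundance of the class between genotypes passed its test. Members were 4.61% of passing cells in WT. The p21Het libraries had 3.23%, 6.24% and 4.43% (4.64% ± 1.51, SD, n = 3), those of p21mTert had 3.54%, 4.74%, 3.58%, 4.15% and 4.36% (4.08% ± 0.518, n = 5), and those of p21mTertCD had 2.93% and 4.11% (3.52% ± 0.835, n = 2). The groups overlapped, and the highest share was that of p21Het replicate 2, the library with the Cadm1, Itgad and Fcrl5 cells. The difference of means was -0.560 percentage points for p21mTert minus p21Het (2-sided exact permutation p = 0.518, or 0.621 adjusted over the 6 tests). It was 0.557 for p21mTert minus p21mTertCD (exact p = 0.286, adjusted 0.600) and -1.12 for p21mTertCD minus p21Het (exact p = 0.400, adjusted 0.600). Without p21Het replicate 2 the first of these was 0.242 percentage points. The smallest p these group sizes allow is 0.0179, 0.0476 and 0.1 in the same order.

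Set against classical monocytes, the non-classical share was higher in every p21mTert library than in either p21mTertCD library. It was 65.8% in WT. In p21Het it was 53.6%, 91.6% and 46.8% (64.0% ± 24.1, n = 3), for p21mTert 63.2%, 75.5%, 87.6%, 72.8% and 81.7% (76.2% ± 9.23, n = 5), and for p21mTertCD 40.8% and 61.0% (50.9% ± 14.3, n = 2). The difference of 25.3 percentage points between p21mTert and p21mTertCD had an exact permutation p of 0.0476, the smallest the design can give, and 0.286 after Benjamini-Hochberg adjustment over the 6 share tests, so it did not pass. It was 15.2 points without p21mTertCD replicate 1 and 35.4 points without replicate 2, and with 1 library left in that group neither could be tested usefully. In the core it was 22.7 percentage points (exact permutation p = 0.0952). The difference of p21mTert from p21Het was 12.2 points (exact p = 0.339, adjusted 0.600) and that of p21mTertCD from p21Het -13.1 points (exact p = 0.700, adjusted 0.700). The spread of p21Het came with replicate 2, which had 49 classical monocytes beside 532 members, and without it the p21mTert minus p21Het difference was 26.0 points (exact p = 0.0476, the smallest this design allows, adjusted 0.143), which did not pass. It was 6.97 points without p21Het replicate 1 (exact p = 0.667) and 3.59 points without replicate 3 (exact p = 0.810).

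**Figure D3:**
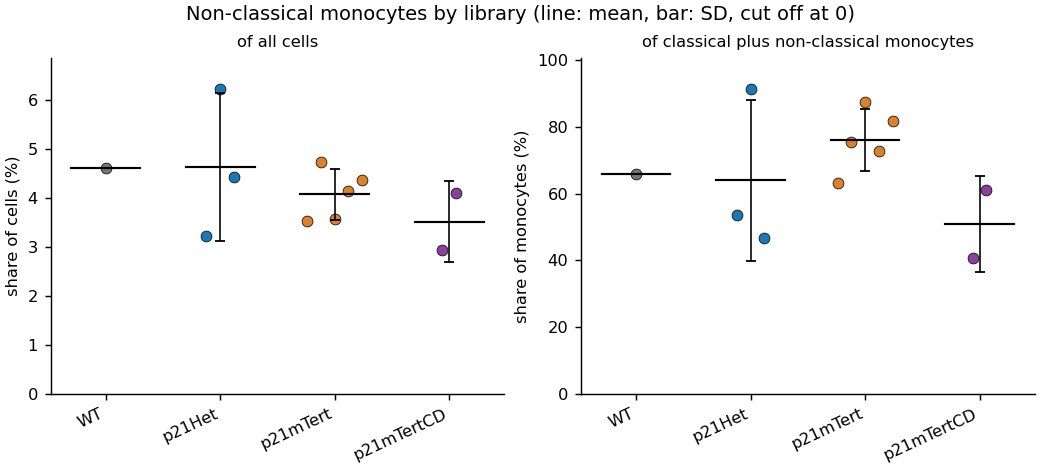
Non-classical monocytes as a percent of passing cells and as a percent of both monocyte classes (y axes), 1 point per library by genotype group (x axis), with the mean as a line and the SD as a bar. The 5 p21mTert libraries lie between 63.2% and 87.6% of monocytes, above the p21mTertCD libraries at 40.8% and 61.0%, and p21Het replicate 2 lies at 91.6%.

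The engineered transcript was checked first. Tert had 0.468 CPM in WT and 0, 0.464 and 0 CPM in p21Het. It had 3.05, 4.37, 4.31, 4.05 and 3.56 CPM in p21mTert and 3.00 and 2.34 CPM in p21mTertCD. All 7 libraries with an mTert or mTertCD allele lay above the 4 others. The sums were 48 UMIs in p21mTert, 12 in p21mTertCD and 2 in p21Het, both of them in replicate 2, so the ratio to p21Het was 18.1 (95% exact interval 4.75 to 154) and 12 (2.68 to 111), which covers counting error only. The ratio of p21mTert to p21mTertCD was 1.51 (0.788 to 3.12). Across all genes, the edgeR quasi-likelihood test gave Benjamini-Hochberg adjusted p values of 0.372 and 0.271 for the contrasts with p21Het. Without the low-count filter the first was 0.0361 (log2 3.91), which passed. Cdkn1a was at 269 CPM in WT, 219, 135 and 257 in the p21Het libraries, 230, 188, 226, 228 and 186 in the p21mTert libraries and 216 and 207 in the p21mTertCD libraries. The groups overlapped, and no contrast passed (edgeR adjusted p at least 0.966).

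In the members as a whole, 10131 genes were tested over the 10 replicated libraries, and p21mTertCD differed from both other groups. Against p21Het, p21mTert had 0 called genes at an adjusted p under 0.05 in edgeR (0% of genes tested; 602 at an unadjusted p under 0.05, and 5 called by DESeq2). Against p21mTertCD, p21mTert had 26 (0.257%), 3 higher (0.0296%) and 23 lower (0.227%). p21mTertCD had 25 genes higher than p21Het (0.247%) and 0 lower (0%). The 2 last comparisons share the p21mTertCD libraries, so their gene lists are not independent. The 23 and 25 genes had 20 in common, which is 87.0% and 80.0% of the lists, and made 28 genes in all. In each of the 28, both p21mTertCD libraries lay above WT, which entered no test, as they did in 3362 of all genes tested (33.2%). The 28 were called because these same 2 libraries were high, so the comparison with WT is no independent check. In the core, 8499 genes were tested and the counts were 3 (0.0353%), 71 (0.835%) and 50 (0.588%), and in the core without p21Het replicate 2 they were 11 (0.13%), 93 (1.1%) and 44 (0.521%). All 23 genes of the first list and 24 of 25 of the second stayed called in the core. The counts for p21mTertCD rested on 2 libraries: both changed without its replicate 1, and the first changed without its replicate 2. Such a fit leaves the group 1 library, so its spread comes from the other groups alone. Without any one p21mTert library the first count was 8 to 14. The second was 9 without p21Het replicate 2 (Ifi47, Ifi211, Zbp1, Irgm1, Ifi27l2a and Vsig8 among them), 14 without p21Het replicate 1 and 16 without p21mTert replicate 2 or 5, and 0 when the fit held only its 2 groups (339 at an unadjusted p under 0.05). The count of 0 between p21mTert and p21Het was 17 without p21Het replicate 3. Without p21Het replicate 2, the adjusted p of the other named genes for p21mTertCD minus p21Het lay above the threshold in edgeR, from 0.0505 (Ifi204) to 0.135 (Irf7), with Gbp3 at 0.0798, Gbp2 at 0.0511, Tap1 at 0.119 and Cxcl9 at 0.133. In the core without that library 22 of the 25 genes were called, Gbp3, Gbp2, Irf7, Ifi204 and Tap1 among them and Cxcl9 and Psmb8 not.

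Among the 28 genes were several known as targets of interferon. Ifi47, an immunity-related GTPase induced by interferon-γ, was at 14.5 CPM in WT, 18.9, 13.5 and 10.7 in the p21Het libraries, 17.1, 18.6, 17.7, 12.5 and 18.2 in the p21mTert libraries and 65.5 and 52.3 in the p21mTertCD libraries. The p21mTertCD libraries were thus far above all others, which overlapped. The log2 fold change was -1.85 (SE 0.21, adjusted p = 0.00586) for p21mTert minus p21mTertCD and 2.12 (SE 0.24, adjusted p = 0.00558) for p21mTertCD minus p21Het, both by edgeR. Gbp3, a guanylate-binding protein that acts on intracellular pathogens, was at 11.7 CPM in WT, 9.14, 8.82 and 9.70 in the p21Het libraries, 6.72, 13.9, 10.0, 11.3 and 13.8 in the p21mTert libraries and 43.5 and 26.9 in the p21mTertCD libraries (log2 -1.66 and 1.97, edgeR adjusted p = 0.0291 and 0.0230). Gbp2 was at 135 and 53.5 CPM in p21mTertCD and between 20.6 and 38.2 CPM in the other 9 libraries, and passed against p21Het (1.91, edgeR adjusted p = 0.0398) but not against p21mTert. The Gbp2 call was lost in 15 of 23 alternatives, with a log2 fold change of 1.06 without p21mTertCD replicate 1 (edgeR adjusted p = 0.545), and the Gbp3 calls in 7 and 8 of 23. Those of Ifi47 were lost in 1 and 2 of 23. Irgm1, another GTPase of this family, was at 37.0 and 31.6 CPM against 10.9 to 19.0 CPM in the other 9.

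A regulator, a sensor and a chemokine among the 28 genes differed in the same direction. Irf7, the amplifier of type I interferon, was at 87.1 and 118 CPM in p21mTertCD and at 44.8 to 67.6 CPM in the other 9 libraries (log2 -0.90 and 0.98). Zbp1, a sensor of Z-form nucleic acids, was at 151 and 118 CPM against 50.2 to 73.7 CPM. Cxcl9, the chemokine that draws activated T cells through CXCR3, was at 15 and 19.5 CPM in p21mTertCD and at 1.14 to 4.89 CPM elsewhere (log2 -2.70, SE 0.47, edgeR adjusted p = 0.0385). Its call was lost in 11 of 22 alternatives for p21mTert minus p21mTertCD and in 13 of 23 for p21mTertCD minus p21Het, and those of Ifi27l2a, an interferon-induced gene, in 9 and 12 of 23.

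By the lists used here, 4 of the 15 interferon response genes tested were called lower in p21mTert than in p21mTertCD (0.227% of all genes were). Irf7, Zbp1 and Ifi27l2a were among them. The same 4 were called higher in p21mTertCD than in p21Het (0.247% of all genes were). The list medians were -1.36 and 1.31 on the log2 scale, with 15 of 15 genes on that side, and the medians of all genes tested were -0.0035 and -0.0079. In the core, 9 of 14 were called lower (0.8% of all genes) and 7 of 14 were called higher (0.588% of all genes). Mx1 (log2 -1.61 and 1.99), Oasl2 (-2.08 and 2.68) and Bst2 (-1.07 and 1.03) were among both. Summed over the list, the level was 3799 CPM in WT, 1799 to 3241 CPM in p21Het, 2291 to 3134 CPM in p21mTert and 4007 to 4619 CPM in p21mTertCD. WT thus lay between the groups, nearest to p21mTertCD.

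The PYHIN genes, a cluster on chromosome 1 that encodes DNA sensors, followed. Of 10 tested, 3 were called lower in p21mTert than in p21mTertCD (Ifi203, Ifi211 and Mndal, median of the list -1.04). In p21mTertCD, 4 were called higher than in p21Het (these and Ifi204, median 1.14). Of all genes, 0.227% and 0.247% were so called. The 10 are close copies of each other, so reads may be divided between them. Ifi211 was at 15.9 CPM in WT, 12.6, 7.66 and 12.3 in the p21Het libraries, 18.3, 22.1, 18.2, 17.4 and 15.1 in the p21mTert libraries and 39.5 and 46.1 in the p21mTertCD libraries (log2 -1.26 and 2.07, edgeR adjusted p = 0.0291 and 0.00558). The MHC class I list had 0 of 8 called in the first comparison (0.257% of all genes) and 3 higher in the second (0.247%), the peptide transporter Tap1 (log2 0.91), H2-T23 (0.93) and H2-Q7 (1.27), which is nearly identical to H2-Q6. Psmb8, a subunit of the immunoproteasome, was at 445 and 432 CPM against 274 to 376 CPM.

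Of the 28 genes, 7 had a promoter with the letters of the interferon-stimulated response element, a site bound by IRF factors. The promoters of Ifi47, Irf7, Cxcl9, Tap1 and Psmb8 held none. Promoters of 4 of the 7 genes are printed, picked because they hold a match. The 250 bases before a RefSeq start site (build GRCm38.p6) are printed 5′ to 3′ on the gene's strand, with matches to GAAA, any 2 bases and GAAA on either strand in capitals, because these genes rose together in p21mTertCD. Gbp3 lies at chr3:142559794-142560043 (plus strand), Irgm1 at chr11:48871421-48871670 (minus), Ifi211 at chr1:173913047-173913296 (minus) and Gbp2 at chr3:142620413-142620662 (plus).
Gbp3: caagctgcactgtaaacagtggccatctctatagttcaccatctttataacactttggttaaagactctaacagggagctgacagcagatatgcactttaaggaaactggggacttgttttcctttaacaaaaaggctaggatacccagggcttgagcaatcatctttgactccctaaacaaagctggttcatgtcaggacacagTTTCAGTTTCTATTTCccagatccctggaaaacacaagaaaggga
Irgm1: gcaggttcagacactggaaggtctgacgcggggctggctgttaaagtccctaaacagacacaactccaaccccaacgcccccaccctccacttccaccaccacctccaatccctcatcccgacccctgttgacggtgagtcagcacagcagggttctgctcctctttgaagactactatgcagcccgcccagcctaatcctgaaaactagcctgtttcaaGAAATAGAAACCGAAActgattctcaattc
Ifi211: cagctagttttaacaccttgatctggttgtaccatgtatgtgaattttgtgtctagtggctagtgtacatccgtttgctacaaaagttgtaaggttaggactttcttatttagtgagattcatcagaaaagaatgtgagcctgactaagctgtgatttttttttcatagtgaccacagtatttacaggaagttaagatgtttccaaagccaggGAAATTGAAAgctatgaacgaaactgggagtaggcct
Gbp2: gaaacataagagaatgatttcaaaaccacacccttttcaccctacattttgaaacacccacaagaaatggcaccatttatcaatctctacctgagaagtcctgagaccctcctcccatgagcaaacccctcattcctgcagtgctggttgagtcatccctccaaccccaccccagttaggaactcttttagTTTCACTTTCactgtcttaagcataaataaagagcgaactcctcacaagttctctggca
Gbp3 and Irgm1 each hold 2 overlapping matches. Gbp3 has a second RefSeq promoter at chr3:142560106-142560355 that holds none. Of the 28 genes, 20 matched the promoter table with 25 promoters, and 8 of these (32%) held the element, against 978 of all 32851 promoters (2.98%) and 2.90% of the promoters of genes tested here. The 8 belong to 7 genes (35% of the 20), Mndal having 2 promoters with the element and Ifi203 1 with and 1 without it, and the PYHIN genes among them are close copies. The letters TTCNNNGAA of the gamma-activated site, an element of interferon-γ targets, were in 1 of the 25 promoters (4%), in 7.02% of all promoters and in 5.92% of those of genes tested. A match is a run of letters and no measured binding site.

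**Figure D4:**
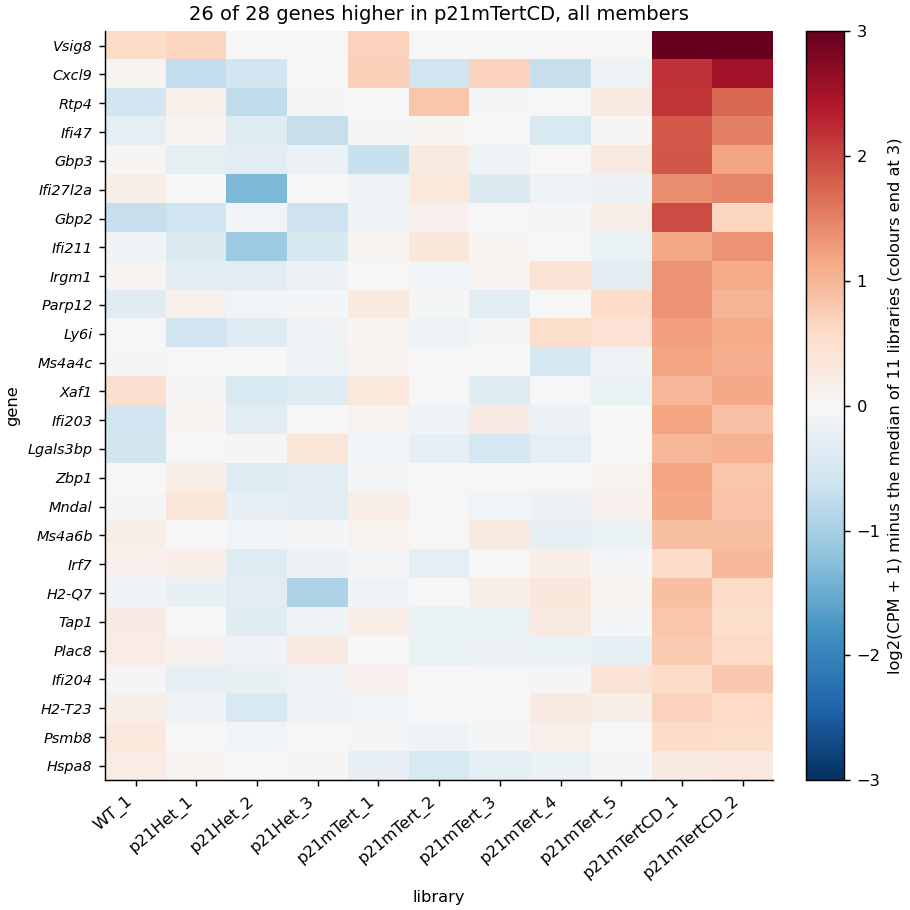
Heat map of 26 of the 28 genes that were higher in p21mTertCD than in p21mTert or p21Het by the edgeR test (rows) in the 11 libraries (columns), coloured by log2(CPM + 1) minus the gene's median over the libraries. Both p21mTertCD columns are red in each row, and the other 9 columns lie near or below the median.

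Vsig8 had the steepest difference of the 28. This gene of the immunoglobulin superfamily (chr1:172555938-172563717, plus strand, GRCm38) was at 21.5 and 21.9 CPM in the p21mTertCD libraries, 0.572, 0 and 0 CPM in p21Het, 0.611, 0, 0, 0 and 0 CPM in p21mTert and 0.468 CPM in WT. It had 99 UMIs in p21mTertCD, 1 in p21mTert and 1 in p21Het (replicate 1), a ratio of 263 to p21mTert (95% exact interval 46.1 to 10486) and of 199 to p21Het (34.8 to 7923). Classical monocytes had 16.6 and 22.2 CPM in the same libraries and at most 0.716 CPM in the others. The p21mTertCD libraries were thus the high ones in both monocyte classes.

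3 genes were higher in p21mTert than in p21mTertCD. Gm42031, a long non-coding RNA (chr8:85125872-85132289, minus strand, GRCm38), was at 10.3 CPM in WT, 5.14, 20.0 and 16.2 in the p21Het libraries, 223, 115, 93.8, 144 and 65.8 in the p21mTert libraries and 5.00 and 12.1 in the p21mTertCD libraries. The 5 p21mTert libraries stood above all others, and so they did in classical monocytes, with 50.0 to 186 CPM against at most 15.3 CPM. The log2 fold change was 3.78 against p21mTertCD (SE 0.59, edgeR adjusted p = 0.0291) and 3.06 against p21Het (edgeR adjusted p = 0.168), and in the core the latter was 3.09 (0.0166), or 3.43 (0.0108) with p21Het replicate 2 also left out. Fam214a was at 8.51 and 7.81 CPM in p21mTertCD and 14.3 to 24.8 CPM in the other 9 libraries (log2 1.24, edgeR adjusted p = 0.0454), a call lost in 18 of 23 alternatives, the core (0.0895) and each fit without a p21mTert or p21mTertCD library among them (0.0774 to 0.366). Gm27010, another long non-coding RNA (chr14:61625926-61627337), was at 19.0 and 25.4 CPM in p21mTertCD and 30.4 to 47.0 CPM elsewhere (log2 0.92, edgeR adjusted p = 0.0363), so for these 2 it was p21mTertCD that lay apart. The Gm27010 call was lost in 11 of 23 alternatives, among them each fit without a p21mTert library (0.0630 to 0.0913) and those without p21mTertCD replicate 1 (0.461) or p21Het replicate 3 (0.0562), and that of Gm42031 in 6 of 23, among them those without p21mTert replicate 2, 3 or 4 or either p21mTertCD library (0.0531 to 0.366).

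**Figure D5:**
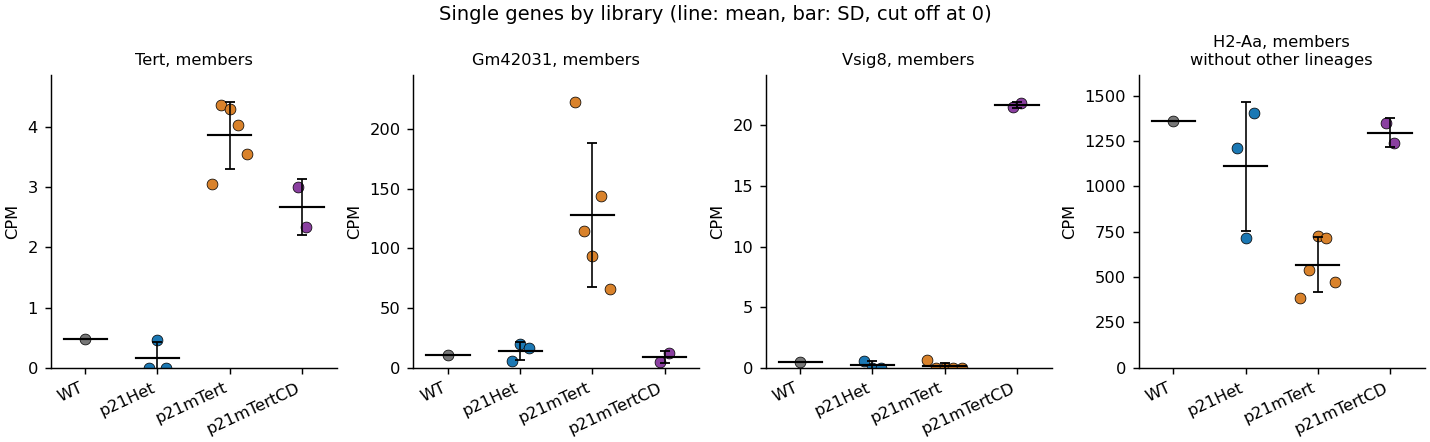
CPM (y axes) of Tert, Gm42031 and Vsig8 in all members and of H2-Aa in core members, 1 point per library by genotype group (x axis), with the mean as a line and the SD as a bar cut off at 0. Gm42031 is between 65.8 and 223 CPM in p21mTert and at most 20.0 CPM elsewhere, and Vsig8 is at 21.5 and 21.9 CPM in p21mTertCD and at most 0.611 CPM elsewhere.

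MHC class II differed once cells with other lineages' transcripts were left out. In all members, 0 of 8 genes passed in any contrast, and the list's median was -0.84 for p21mTert minus p21mTertCD. In the core, H2-Aa was at 1361 CPM in WT, 1211, 715 and 1405 in the p21Het libraries, 384, 538, 726, 717 and 474 in the p21mTert libraries and 1353 and 1242 in the p21mTertCD libraries. The p21mTert libraries were low, with p21Het replicate 2 among them. In that library H2-Aa was at 82.8 CPM in the Cadm1, Itgad and Fcrl5 cells. Its other core members were at 924 CPM, above each p21mTert library. H2-Aa (log2 -1.23), H2-Ab1 (-1.25), H2-Eb1 (-1.23) and Cd74 (-0.99) were called lower in p21mTert than in p21mTertCD, 4 of 7 tested (0.8% of all genes were called lower). Their edgeR adjusted p values were 0.0265, 0.0180, 0.0285 and 0.0259. Against p21Het, H2-Aa differed by -0.92 (adjusted p = 0.225), and with p21Het replicate 2 also left out by -1.13 (0.0462), when H2-Ab1 passed as well (-1.06, 0.0462). Dendritic cell markers, whose cells carry much MHC class II, summed in the core to 4.68 to 13 CPM in p21Het, 5.19 to 13.7 CPM in p21mTert and 4.86 to 5.29 CPM in p21mTertCD. In all members they summed to 78.7 to 107, 31.8 to 138 and 61.5 to 148 CPM, and their part in the values over all members was not tested.

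p21mTert differed from p21Het in few genes of the class. Beside Gm42031, 2 genes passed in the core. Tmem176a, a membrane protein of antigen-presenting cells, was at 127 CPM in WT, 142, 65.5 and 120 in p21Het and 54.8, 33.9, 30.6, 47.3 and 29.8 in p21mTert, and 45.4 and 77.0 in p21mTertCD (log2 -1.43, edgeR adjusted p = 0.0399, and -1.69 with 0.00215 without p21Het replicate 2). H2-Q6, a non-classical MHC class I gene with a near-identical copy in H2-Q7, was at 33.4 CPM in WT, 20.6, 12.2 and 10.9 in the p21Het libraries, 51.9, 26.1, 42.6, 42.8 and 37.3 in the p21mTert libraries and 43.7 and 32.9 in the p21mTertCD libraries (log2 1.53, 0.0399), and did not pass without p21Het replicate 2 (1.49, 0.0797). Without p21Het replicate 2, Ccr2 also passed in the core: it was at 213 and 180 CPM in p21Het replicates 1 and 3 and 122, 80.5, 64.6, 96.0 and 71.2 CPM in p21mTert (log2 -1.12, edgeR adjusted p = 0.0215), while replicate 2 had 63.0 CPM. Against p21mTertCD, at 256 and 206 CPM, Ccr2 was lower in p21mTert in the core (-1.48, edgeR adjusted p = 0.0301). Members at the limit of F13a1 and Vcan UMIs often held Ccr2, as given above, and their part in these values was not tested. Ace was at 570, 408 and 588 CPM in p21Het and 692, 649, 707, 705 and 726 CPM in p21mTert over all members, groups that do not overlap, as held for 1.44% of genes tested (log2 0.42), and passed in DESeq2 (adjusted p = 0.0250) but not in edgeR (0.694). The lowest value, 408 CPM, is that of p21Het replicate 2 with its Ace-poor cells, and without this library the difference was 0.31 (edgeR adjusted p = 0.925).

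The genes that define the class did not pass in edgeR in any contrast of all members, Ace having passed in DESeq2. Of the 13 non-classical markers, 10 had no part in choosing the members, and 0 of these 10 were called in edgeR, with medians of 0.16, 0.13 and 0.11 in the contrasts of p21mTert with p21Het, of p21mTert with p21mTertCD and of p21mTertCD with p21Het. With 0%, 0.257% and 0.247% of all genes called in these contrasts, a count of 0 is near the background. Nr4a1 was at 1558, 1256 and 1504 CPM in p21Het, 1691, 1607, 1753, 1826 and 2170 CPM in p21mTert and 1220 and 2014 CPM in p21mTertCD (log2 0.33 for p21mTert minus p21Het, edgeR adjusted p = 0.828). Fcgr4 was at 293, 1004 and 500 CPM in p21Het, and the middle value is the library with the Cadm1, Itgad and Fcrl5 cells. None of the 20 regulators, 21 adhesion, 14 survival, 22 Fc and surface receptor, 18 lipid, 21 cytokine, 15 p53 target and 12 immediate early and stress genes tested was called in any of the 3 contrasts in edgeR, which is also near that background. In the core, the Fc receptor Fcgr1 (log2 -1.72) and the chemokine Ccl2 (-1.53) fell in p21mTert relative to p21mTertCD. At an unadjusted p under 0.05, the regulators had 2, 4 and 1 such genes and the lipid genes 4, 2 and 2, in the same order, beside 602, 833 and 599 of all 10131 genes.

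Transcripts of other cells varied widely between libraries of one group. Neutrophil markers summed to 2597 to 12413 CPM in p21Het, 1959 to 11486 CPM in p21mTert and 3826 to 7452 CPM in p21mTertCD, and hemoglobin and other erythroid genes to 57.7 to 5546, 104 to 3231 and 62.9 to 2528 CPM. Epithelial markers summed to 805 to 7864 CPM in p21Het, 1512 to 2147 CPM in p21mTert and 1085 to 1087 CPM in p21mTertCD. In the core, neutrophil markers summed to 290 to 347, 113 to 482 and 147 to 247 CPM. The called interferon and PYHIN genes remained called there, except Cxcl9 for p21mTertCD minus p21Het (log2 3.95, edgeR adjusted p = 0.0536).

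Whether genotype differences were particular to this class depended on which cells and libraries entered the test. A test of the difference between members and classical monocytes over 10272 genes called 1 gene for p21mTert minus p21Het (0.00974%), the acute-phase gene Saa3, and 0 for each of the other contrasts (0%; 568, 464 and 404 genes at an unadjusted p under 0.05 for the 3 contrasts, by edgeR). With other lineages' cells left out of both classes, 5, 5 and 2 genes were called (0.0574%, 0.0574% and 0.0229%). The first 5 were Saa3, the heat shock genes Hspa8 and Hspa1a, Wfdc17 and Yae1d1. Few classical monocytes were left in some libraries of this test. The core made up 153 of 169 monocytes in p21mTert replicate 5, 187 of 210 in p21mTert replicate 3 and 451 of 480 in p21Het replicate 2. The planned limit of 20 cells per class and library was not applied, and p21mTert replicate 5 fell below it. For p21mTert minus p21mTertCD, the difference was lower in the core than in classical monocytes for Gbp3 (by log2 -1.56, SE 0.29, edgeR adjusted p = 0.0232), Mndal (-1.19, SE 0.20, 0.0104), Rgcc (-1.44, 0.0308) and the cell cycle gene Ube2c (-7.41, 0.0104), and higher for Saa3 (6.30, 0.0104). For p21mTertCD minus p21Het, the genes were Ube2c (7.001, edgeR adjusted p = 0.0123) and Top2a (6.96, 0.0236), both of the cell cycle. Neither was among the genes called for this contrast with p21Het replicate 2 also left out, and 0 genes were called for it in the core without the Cadm1, Itgad and Fcrl5 cells. Nor was Ube2c called for p21mTert minus p21mTertCD in the core without those cells, while Gbp3, Mndal, Rgcc and Saa3 were. These genes were named after their values were seen. With p21Het replicate 2 also left out the counts were 35, 15 and 10 (0.407%, 0.174% and 0.116%). MHC class II then differed between the classes for both contrasts with p21Het. The 35 also held ribosomal protein genes (Rpl10 at -0.53, with Rps9, Rpl41 and others) and the heat shock genes Hspa1a (-3.77), Hspa1b and Hspa8, all lower. Saa3, Dusp16 and Gcnt2 were higher. The 15 for p21mTert minus p21mTertCD held Gbp2 (-1.30), Gbp3 (-1.55), Ifit3 (-2.72) and Ifi47 (-1.23), whose difference was lower in the core than in classical monocytes. Saa3 and Dusp16 were among those of the 15 with a higher difference. For p21mTert minus p21Het the difference between the classes was -2.02 for H2-Aa (SE 0.19, edgeR adjusted p = 9.4e-09), -1.92 for H2-Eb1 (9.4e-09) and -1.45 for Cd74 (5.1e-06). For p21mTertCD minus p21Het, which shares the p21Het libraries, it was -1.28 for H2-Aa (edgeR adjusted p = 0.00606), -1.17 for H2-Eb1 (0.00606) and -0.96 for H2-Ab1 (0.0335). In the core itself, the H2-Aa values of p21mTertCD given above lay between those of the p21Het libraries that were kept. The difference between the classes was thus no fall of H2-Aa in the core of p21mTertCD. In all members without p21Het replicate 2, 4 genes were called (0.0393%), and H2-Aa (-1.45, 0.00333), H2-Eb1 (-1.55, 0.00333) and Cd74 (-1.17, 0.0290) were among them. The core without the Cadm1, Itgad and Fcrl5 cells was tested with all p21Het libraries kept. For p21mTert minus p21Het, H2-Aa (-1.54, edgeR adjusted p = 0.00358), H2-Eb1 (-1.41, 0.00761), H2-Ab1 (-1.21, 0.00971) and Cd74 (-1.06, 0.0269) passed there. In all classical monocytes, H2-Aa was at 436, 729 and 476 CPM in p21Het and 669, 731, 709, 680 and 1017 CPM in p21mTert, so the p21mTert libraries were not the low ones there. Each p21mTert library lay above the 436 and 476 CPM of p21Het replicates 1 and 3. Cells with other lineages' markers were not left out of these values, while the class tests of the core left them out of classical monocytes too.

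In classical monocytes, both p21mTertCD libraries also lay above the other 9 in 21 of the 28 genes, against 159 of the 10131 genes (1.57%). Ifi47 there was at 162 and 139 CPM against 37.5 to 97.0 CPM, so the p21mTertCD libraries were the highest in both classes for this gene. The size of its difference was not alike in every form of the class test. In the core without p21Het replicate 2, p21mTert minus p21mTertCD differed between the classes by -1.23 (edgeR adjusted p = 0.0360). That difference did not pass in all members or in the core with all libraries.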

How the data were processed

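Per the labels, total lung cells were captured with 10x 3′ V2 chemistry, and the authors deposited matrices of UMI counts per gene and barcode, mapped to mm10 with Cell Ranger per the submitters' processing notes. Different versions of that tool are given by the labels and the file headers, so none is named. The values used here are the deposited raw counts of 11 libraries and 31053 genes. From 81983 barcodes, the series text's limits kept those whose depth lay between 1000 and 30000 UMIs and whose mitochondrial share did not pass 14%. Doublets were scored with Scrublet (scanpy 1.11.5). Its own thresholds marked 0% to 3.59% of cells, under 0.5% in 3 libraries, so the 0.8% of cells per 1000 barcodes with the highest scores were marked instead and left out in an alternative.

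UMIs were summed per library over members and tested with edgeR 4.0.16 (R 4.3.3) by the quasi-likelihood test, with TMM scaling, filterByExpr, 1 group term over the 10 replicated libraries, and Benjamini-Hochberg adjustment over all genes tested. WT, a single library, entered no test. Shares were compared by 2-sided exact permutation over libraries (scipy 1.17.1), with 6 tests adjusted together, and intervals of counts are exact 95% intervals. DESeq2 1.42.0, other filters and scalings, each library left out, the replicate block, the later deposit alone, a receptor limit of 3 UMIs and the core were alternatives. Named genes were Cdkn1a, Tert, the gate genes, the members of 12 function and 16 marker lists, the 15 highest and 15 lowest against classical monocytes, and up to 8 called genes per direction with groups that did not overlap and a group mean of 10 CPM or more. Single genes outside that rule (Gm42031 in the core, Tmem176a, H2-Q6, Irgm1, Psmb8, Fcrl5, Cadm1, Itgad and the genes of those cells) were chosen after their values were seen. Some genes of the lists and of the called genes are not reported here. The members and lists were chosen with earlier results of these data known. Positions of genes were taken from GENCODE M21 (GRCm38), where 31011 gene IDs were found. On simulated counts, the test recovered 82%, 58% and 43% of 2-fold changes when simulating p21mTert against p21Het, p21mTert against p21mTertCD and p21mTertCD against p21Het (10026, 9950 and 10010 genes), and 100%, 99% and 98% of 4-fold changes. All genes were simulated with the same spread, only genes with higher counts were changed, and no library was made to stand apart. The recovered shares therefore do not cover genes of few UMIs or a library such as p21Het replicate 2.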

Additional observations from a re-analysis of the deposited data

Results flagged for a closer look

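Within p21mTert, 1 library lay far from the other 4 for 3 genes. Vsig8 was at 0.611 CPM in replicate 1 and at 0 in the others, which is 1 UMI. Ifi47 was at 12.5 CPM in replicate 4, the lowest of the group, and Rtp4, an interferon-induced chaperone, at 21.6 CPM in replicate 2, the highest. These were 3 of 18 gene and group pairs checked, and chance alone marks about 1 in 20. The p21mTertCD libraries lay above all of these values.

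Saa3 differed between the monocyte classes in its response. The difference of p21mTert minus p21Het was higher in members than in classical monocytes by 7.65 on the log2 scale (SE 1.02, edgeR adjusted p = 0.0144). In members, Saa3 had 4, 38 and 11 UMIs in p21Het and 41, 130, 1, 1 and 3 in p21mTert. In classical monocytes it had 9, 517 and 570 UMIs in p21Het and 2, 2, 5, 7 and 2 in p21mTert. The libraries of a group differed widely in both classes. The gene passed in the core too (7.23, edgeR adjusted p = 1.6e-05). It did not pass with the later deposit alone (0.171), with doublets left out (3.56, 0.630), with 3 receptor UMIs (0.0674), or without p21mTert replicate 1 (0.107), p21mTert replicate 2 (0.190), p21Het replicate 2 (0.189) or p21Het replicate 3 (0.0685).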

How the results depend on the processing

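Over the 8 libraries of the later deposit, libraries with the same replicate number correlated at 0.19, 0.03, 0.18 and -0.05. Those with different numbers correlated at -0.23 to 0.33. The values were taken after the group mean was removed, so the p21mTertCD libraries mirror each other. These correlations therefore cannot decide whether the numbers pair the libraries. The first deposit's libraries were not compared in this way. With the replicate block, 6 genes were called for p21mTert minus p21mTertCD and 4 for p21mTertCD minus p21Het. The ranges over libraries left out, below, include fits that leave p21mTertCD 1 library and so no spread of its own. For the count of called genes, p21mTert minus p21Het gave 0, with 5 by DESeq2, 17 without the low-count filter, 3 in the core, 7 in the core with a deposit term, 5 in the core without the Cadm1, Itgad and Fcrl5 cells, 11 in the core without p21Het replicate 2, and 0 to 17 with each library left out. For p21mTert minus p21mTertCD (26) these were 69, 65, 71, 83, 94 and 93, with 10 in the later deposit and 0 to 49 with each library left out. For p21mTertCD minus p21Het (25) they were 44 by DESeq2, 8 in the later deposit, 0 on the 2 groups alone, 50, 64, 62 and 44 in the forms of the core, and 0 to 37 with each library left out. Genes that differed between the classes, 1, 0 and 0, were 130, 63 and 63 without the filter, 5, 5 and 2 in the core, 35, 15 and 10 in the core without p21Het replicate 2, 23, 5 and 0 in the core without the Cadm1, Itgad and Fcrl5 cells, 0 for the first in the later deposit, without doublets and with 3 receptor UMIs, and 0 to 4, 0 to 1 and 0 to 2 with each library left out.

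The share of cells changed sign for p21mTert minus p21Het in the core without the Cadm1, Itgad and Fcrl5 cells (0.125 points). It also did so in the core without p21Het replicate 2 (0.536), and ran from -1.26 to 0.242 over libraries left out. For p21mTert minus p21mTertCD it ran from -0.033 to 1.15, and for p21mTertCD minus p21Het from -1.82 to -0.315, with 0.0572 in the core without p21Het replicate 2. The share of monocytes for p21mTertCD minus p21Het ran from -23.2 to 0.663. Cdkn1a, which passed nowhere, changed sign in the core without p21Het replicate 2 (log2 -0.022, 0.0249 and -0.0469 for the 3 contrasts) and, for p21mTert minus p21mTertCD, with 3 receptor UMIs (0.0828) and in the core (0.0261). With libraries left out it ran from -0.13 to 0.256, from -0.101 to 0.00742 and from -0.0788 to 0.307. The cause was not tested. The 19 results on named called genes kept their call in 292 of 435 alternatives, lost it in 143 and changed direction in 0. Depth limits genes such as Tert, which had 48, 12 and 2 UMIs in the members of p21mTert, p21mTertCD and p21Het, and groups of 2 and 3 libraries limit every test.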
